A study of Mus musculus with 2 samples.

Results

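Of the 8231 cells that passed the filters in the library of Isl1-deleted islet cells, 467 (5.67%, exact Clopper-Pearson 95% interval 5.18 to 6.20) drew at least 5% of their UMIs from the 2 mouse insulin genes, Ins1 and Ins2, and these high-insulin cells are described here. A UMI, or unique molecular identifier, stands for 1 captured RNA molecule. The cells had at least 1000 UMIs and 500 genes and at most 15% mitochondrial UMIs, and 12450 cells of both libraries met these limits. They were compared with 205 of 4219 control cells that also reached 5% insulin and held less than 5% each of Gcg, Sst and Ppy UMIs, called control insulin-only cells below. They were also compared with 7298 Isl1CKO cells whose insulin share was under 1%. Because the rule used Ins1 and Ins2, insulin levels are given as a description only.

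The mice were 1 month old, and each genotype is 1 library made from 3 pooled samples of tdTomato+ cells sorted from islets dispersed with actinomycin D, which blocks new transcription. Controls were Neurod1 Cre/+; Isl1f/+, and so carried the Cre and a single floxed Isl1 allele, and Isl1CKO mice were Neurod1 Cre/+; Isl1f/f. Both carried the tdTomato reporter, a red fluorescent protein, and Neurod1 drives the Cre in endocrine cells. With 1 library per genotype, genotype, library and pooled animals cannot be told apart, so no test was made. Intervals are at the 95% level and reflect counting error alone.

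Beta cells take up glucose through the transporter Slc2a2, close ATP-sensitive potassium channels built on Abcc8, and release insulin together with amylin, the product of Iapp, from granules in which Pcsk1 and Pcsk2 cut the prohormones. Their identity rests on transcription factors such as Pdx1, Nkx6-1 and Mafa. Isl1 is a LIM-homeodomain factor of islet endocrine cells, and homeodomain proteins commonly bind DNA with a TAAT core. Neurod1 and its partners bind E-boxes, of which CATCTG is the version long studied in insulin promoters.

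The upstream sequences of 3 genes that mark the high-insulin cells are shown because they span what was measured. Slc2a2 and insulin lay well under the control level, and Iapp was under it by less than 2-fold over all cells. The sequences are those of Ins1 (GRCm38 chr19:52264047-52264296), Iapp (chr6:142298175-142298424) and Slc2a2 (chr3:28697653-28697902), all on the plus strand. They are the 250 bases before the RefSeq start of each gene (GRCm38.p6), 5′ to 3′, with matches to TAAT and CATCTG on either strand in capitals.
Ins1: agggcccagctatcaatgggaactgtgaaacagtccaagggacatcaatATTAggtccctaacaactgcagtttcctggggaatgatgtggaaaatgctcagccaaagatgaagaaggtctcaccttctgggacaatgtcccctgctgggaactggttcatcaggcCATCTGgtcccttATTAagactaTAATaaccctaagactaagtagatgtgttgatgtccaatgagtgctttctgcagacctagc
Iapp: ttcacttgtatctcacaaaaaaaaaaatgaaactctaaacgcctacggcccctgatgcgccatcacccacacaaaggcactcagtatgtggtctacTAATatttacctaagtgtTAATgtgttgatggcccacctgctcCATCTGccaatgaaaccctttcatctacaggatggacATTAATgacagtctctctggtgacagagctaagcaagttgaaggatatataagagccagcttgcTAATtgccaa
Slc2a2: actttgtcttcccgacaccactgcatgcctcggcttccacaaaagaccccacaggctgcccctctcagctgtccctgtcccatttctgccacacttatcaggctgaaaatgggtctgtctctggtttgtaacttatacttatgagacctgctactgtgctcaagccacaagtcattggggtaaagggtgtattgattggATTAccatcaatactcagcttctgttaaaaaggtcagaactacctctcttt
Ins1 held 3 TAAT matches and 1 CATCTG match, and Iapp held 5 and 1, of which 2 of the TAAT matches overlap. Slc2a2 held 1 TAAT match, and the letters CATCTG were not in its window. Of 32851 RefSeq promoters, 54.9% held TAAT on either strand in the same window, 17.3% held 3 or more matches and 5.54% held 5 or more, while CATCTG was in 14.4%. A match is a description of the letters only.

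The high-insulin cells had a median of 14645 UMIs and 3665 genes, against 19828 UMIs and 2882 genes in control insulin-only cells. Leaving insulin out, the medians were 11997 and 7737 UMIs, so the other genes were read more deeply in the Isl1CKO cells. Mitochondrial UMIs made up a median of 1.41% and 0.479% of all UMIs, insulin included. The libraries held 86086781 (Isl1CKO) and 48685758 (control) UMIs and shared 8 barcodes among cells, 2 of them high-insulin cells. Cells with Xist and no Y-linked UMI are called female and cells with Y-linked UMIs and no Xist male; the labels name males for the control and both sexes for Isl1CKO. Against that label, 973 of the 4219 control cells were female by this measure, and every female control value below rests on such cells. By this measure 242 high-insulin cells were female, 148 male, 33 had both kinds of transcript and 44 neither, while 107 control insulin-only cells were male and 27 female. Male cells were thus 37.9% of high-insulin and 79.9% of control insulin-only cells of known sex, and the part of this in the pooled ratios was not tested. In the RNA of near-empty barcodes (under 100 UMIs), insulin was 2.28% of UMIs in Isl1CKO and 9.66% in control. The control value lies inside the range of the control insulin-only cells, 9 of which held under 10% insulin.

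Insulin shares of the high-insulin cells formed a continuous range with no gap at the limit. They ran from 5.01% to 75.1% of a cell's UMIs with a median of 12.6%, and the middle 50% of the cells lay between 7.97% and 22.2%. Control insulin-only cells ran from 5.15% to 90.6% with a median of 61.3%, and their middle 50% lay between 42.9% and 70.5%. The ranges overlapped, but most cells did not share a level: 24 high-insulin cells reached 40% or more, against 158 of the control cells. Just under the limit, 31 Isl1CKO cells held 4.52% to 4.99%, and 29 just over it held 5.01% to 5.49%. The histogram of insulin share shows a separate peak in control and a long shoulder in Isl1CKO.

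**Figure D1:**
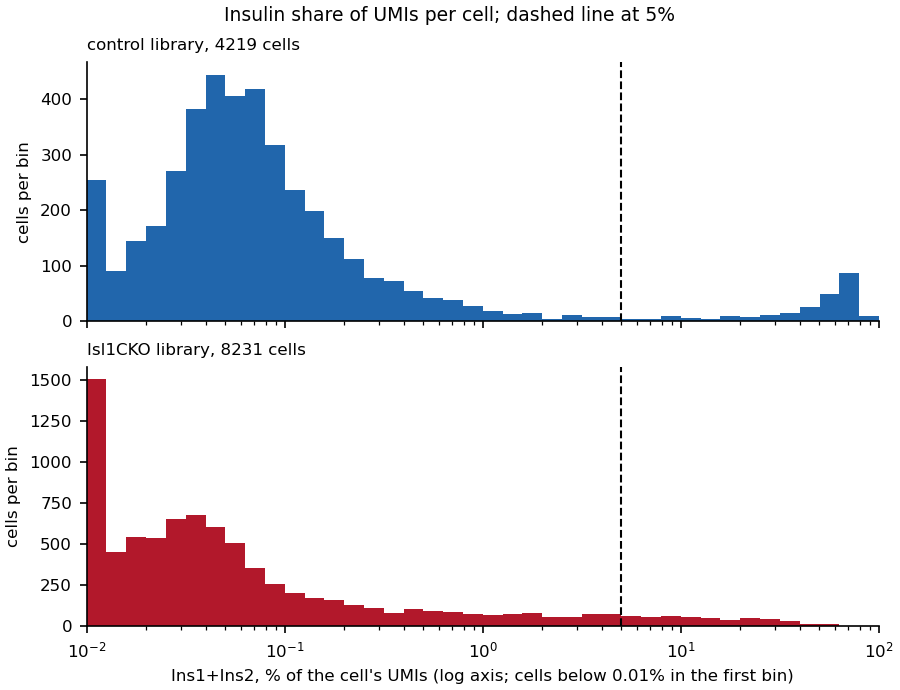
Histograms of the Ins1 and Ins2 share of each cell's UMIs (log axis) in the 4219 control and 8231 Isl1CKO cells, with the vertical axis in cells per bin and the 5% limit dashed. Of the control cells at or above the limit, most lie in the bins at 40% and over, whereas the 467 Isl1CKO cells at or above it become fewer from 20% upward.

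The mix of insulin messages differed as well. Pooled over cells, insulin was 20.1% of UMIs in high-insulin cells and 61.4% in control insulin-only cells. Ins1 (chromosome 19, 52264297 to 52265476) supplied 13.5% of insulin UMIs (13.4 to 13.5) against 20.5% (20.4 to 20.5) in control. Among Isl1CKO cells with insulin of 1% to under 5%, its share was 23.9%, and 35.3% where insulin was under 1%. Ins1 and Ins2 are near-identical copies, and how reads matching both were counted is not given in the sources used here, so the split is uncertain. Iapp (chromosome 6, 142298423 to 142303961) kept a high level: it was 5.25% of UMIs in high-insulin cells and 4.44% in control insulin-only cells. By the sex measure above, it was 7.66% in male and 3.13% in female high-insulin cells, against 4.19% and 5.47% in control. Insulin UMIs per Iapp UMI were 3.82 and 13.8. On the scale used for the other genes, below, Iapp stood at 52474 and 88509 CPM over all cells (log2 ratio -0.75, interval -0.76 to -0.75), which did not reach 2-fold. Iapp was called lower in female cells and was not called in male cells, where 8.32% and 5.87% of all genes were called lower.

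For all other genes, UMIs were summed over the cells of a group and given as CPM, counts relative to the summed total, scaled by TMM so that most genes match between groups. Insulin takes up most control UMIs, so unscaled CPM shifted every log2 ratio upward by 0.995, and totals lacking hormone genes moved it by -0.18. A gene was called at a 2-fold or larger difference with an interval excluding a ratio of 1, among genes at 5 CPM or more in 1 group. In every comparison, a gene under 5 CPM in 1 group could therefore be called only toward the other group. Against control insulin-only cells, 10328 genes were measured, 910 (8.81%) were called higher in high-insulin cells and 703 (6.81%) lower (median log2 ratio 0.03). Higher genes were 56.4% of the calls with TMM, 97.6% unscaled and 39.0% without hormone genes in the totals. With TMM, both directions together came to 15.6% of measured genes. Unscaled, 5288 of 9877 measured genes were higher and 131 lower, and the unscaled list counts below stand beside those. Totals lacking hormone genes gave 722 higher and 1129 lower of 10996 genes.

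The glucose sensing and maturity genes were the beta cell group with the lowest levels relative to control. Of 20 listed genes 16 were measured, 11 were called lower (the background for lower calls is 6.81% of all measured genes) and 1 higher, while the list's median log2 ratio was -2.43. Without scaling 8 were lower and 2 higher, with a median of -1.43. Ucn3, Trpm5 and Cox6a2, under 5 CPM in high-insulin cells, were measured only through control and could not have been called higher. Slc2a2, the glucose transporter (chromosome 3, 28697903 to 28731359), stood at 98.6 CPM in high-insulin and 651 CPM in control insulin-only cells, a log2 ratio of -2.72 (-2.85 to -2.59). G6pc2, the islet glucose-6-phosphatase, stood at 24.0 and 491 CPM (log2 ratio -4.35, interval -4.59 to -4.12). Ucn3, a peptide of mature beta cells, was nearly absent, with 9 UMIs in 5 of 467 cells (1.22 CPM) against 194 CPM in control. Trpm5, a cation channel, had 5 UMIs in 5 cells, or 0.678 against 51.2 CPM. Cox6a2, a subunit of cytochrome oxidase found in mature beta cells, had 0 UMIs, at least 107-fold lower than the 43.7 CPM of control when 3 counts are taken as the limit.

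Other lower genes of this list kept a measurable level. Slc30a8, which loads zinc into insulin granules, stood at 314 CPM in high-insulin and 755 CPM in control cells. Ero1lb, an oxidase for proinsulin folding, stood at 79.3 and 492 CPM, and Ffar1, the fatty acid receptor, at 22.4 and 86.1 CPM. Sytl4, a granule protein, stood at 26.3 and 123 CPM. The single higher gene was the growth factor receptor Igf1r, at 35.0 against 12.6 CPM, and it was not called among cells with 20% to under 60% insulin in both groups (log2 ratio 0.82).

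Beta cell transcription factors split into those near the control level and a few that were lower. Of 17 listed, 16 were measured, 0 were called higher and 5 lower, beside 8.81% and 6.81% of all genes, around a median log2 ratio of 0.01; without scaling 3 were lower and 8 higher. Pdx1, the master regulator of pancreas and beta cell identity, stood at 58.7 CPM in high-insulin and 334 CPM in control insulin-only cells, a log2 ratio of -2.51 (-2.68 to -2.33). Nkx6-1, which maintains beta cell identity, stood at 128 and 381 CPM (log2 ratio -1.57, interval -1.71 to -1.43). Mafa, which activates insulin transcription in mature cells, had 2 UMIs in high-insulin cells and 29 in control, a log2 ratio of -5.10 (-8.75 to -3.65). Mnx1 (4.75 and 26.5 CPM) and Insm1 (98.0 and 206 CPM) were the other lower genes. Values near control were those of Nkx2-2 (121 and 113 CPM), Pax6 (221 and 223 CPM), Foxa2 (71.5 and 69.3 CPM) and Rfx6 (46.5 and 40.9 CPM). Neurod1, whose promoter drives the Cre, stood at 289 and 381 CPM. Isl1 itself stood at 192 and 172 CPM; the labels do not say which exons were floxed, so 3′ counts of it cannot check the genotype.

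**Figure D2:**
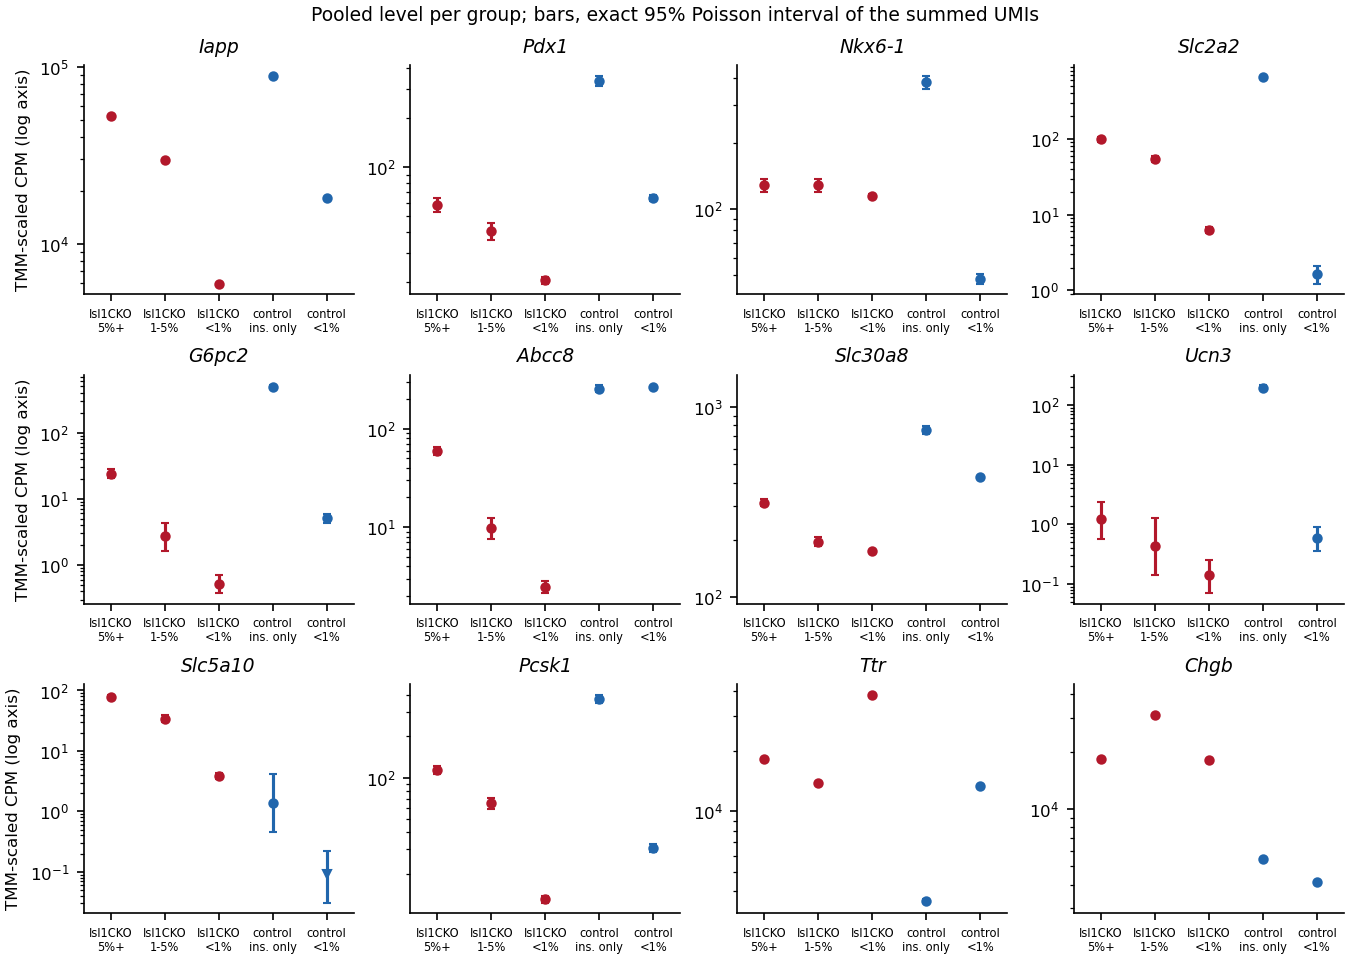
TMM-scaled CPM (log axes that differ between panels) of 12 genes in 5 groups of cells, with red for Isl1CKO and blue for control, bars for the exact 95% Poisson interval of the summed UMIs, and triangles at the level of 3 counts where fewer were found. Slc2a2, G6pc2 and Abcc8 in high-insulin cells lie between Isl1CKO cells with insulin under 1% and control insulin-only cells, while Slc5a10 is highest in high-insulin cells.

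Among 13 channel genes, 11 were measured, 2 were called lower and 2 higher (median log2 ratio 0.38), beside 6.81% and 8.81% of all genes. Without scaling 1 was lower and 8 higher, beside 131 and 5288 of 9877 genes measured on that scale. Abcc8, the sulfonylurea receptor of the ATP-sensitive potassium channel (chromosome 7, 46104523 to 46180033), stood at 59.8 CPM in high-insulin and 254 CPM in control insulin-only cells, a log2 ratio of -2.09 (-2.27 to -1.91). Scn9a, a sodium channel, stood at 16.1 and 42.8 CPM. The sodium channel Scn3a went the other way, at 114 and 24.2 CPM (log2 ratio 2.21, interval 1.83 to 2.67).

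The secretory machinery stayed close to control apart from a handful of genes. All 16 processing and granule genes were measured, of which 2 were lower and 2 higher (median log2 ratio 0.19), beside 6.81% and 8.81% of all genes. Without scaling 1 was lower and 11 higher, beside 131 and 5288 of 9877 genes measured on that scale. Pcsk1, which makes the first cut in proinsulin, stood at 113 CPM in high-insulin and 374 CPM in control cells, whereas Pcsk2 stood at 3041 and 2675 CPM. The granin Chgb was higher at 18184 and 5451 CPM (log2 ratio 1.74, interval 1.71 to 1.77), Scg2 was lower at 677 and 3653 CPM, and Chga stood at 39526 and 30362 CPM. Of 14 measured exocytosis genes only the small GTPase Rab3a was called, at 72.1 and 196 CPM (log2 ratio -1.44). That list, with the same all-gene shares beside it, had a median log2 ratio of 0.13. Without scaling 8 of its genes were higher and 0 lower, beside the same unscaled counts of all genes.

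Hormones of the other islet cell types were scarce in high-insulin cells. Glucagon, Gcg, stood at 69.6 CPM, and 81.3% of its UMIs lay in 5 cells; the gamma cell hormone Ppy stood at 9.90 CPM, its relative Pyy at 11.8 CPM, and the delta cell hormone Sst had 4 UMIs in all. Control insulin-only cells held 4699, 4333, 9234 and 4223 CPM of these 4 messages, and 5 of those cells carried 72.9% of the Gcg and 74.9% of the Sst UMIs. Per control cell, Gcg had a median of 0.0582% and a maximum of 4.53% of UMIs, and Sst 0.00963% and 4.33%. The free RNA of the control library carried 16.7% Gcg, 6.88% Ppy, 6.55% Pyy and 2.73% Sst, against 0.0891%, 0.00675%, 0.0145% and 0.00534% in Isl1CKO, and its part in these differences was not tested. The limit on other hormones applied to control cells only, yet no high-insulin cell held more than 0.581% Gcg, 0.0122% Sst or 0.0876% Ppy.

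Some alpha cell genes other than the hormone were higher. Of 16 listed, 12 were measured, 4 were higher, 1 (Gcg) lower, and the median log2 ratio was 0.17 (6 higher and 1 lower without scaling), beside 8.81% and 6.81% of all genes. The sign of the median was not stable: male cells gave 0.54 and female cells -0.59 (3 higher, 3 lower), with -0.13 without doublets, -0.09 at 20% to under 60% insulin and -0.01 with totals lacking hormone genes. Ttr, a thyroxine carrier abundant in alpha cells, stood at 18310 CPM in high-insulin and 3558 CPM in control insulin-only cells, a log2 ratio of 2.36 (2.33 to 2.40). Gc, the vitamin D-binding protein, stood at 295 and 47.9 CPM, and the factor Etv1 at 119 and 27.4 CPM. The alpha cell factors Irx1 and Irx2 were not called and stood at 5.70 and 7.19 CPM against 5.58 and 10.2 CPM. Of 9 measured delta and gamma cell genes 6 were lower and 0 higher, among them Rbp4 (106 and 768 CPM), a retinol carrier, and Ppp1r1a (209 and 1020 CPM), a phosphatase inhibitor.

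The list of genes described in dedifferentiated beta cells had a median log2 ratio of 3.72 over 9 measured of 14 listed genes, with 7 called higher against a background of 8.81% and 0 lower. This differed between the sexes: male cells had 5 higher genes and a median of 2.99, female cells 3 and 0.24. With equal weight per cell the median was 2.48. Slc5a10 (1.40 CPM), Serpina7, Aldh1a3 and Cck (0 UMIs) lay under 5 CPM in control. They were measured only through the high-insulin cells and could not have been called lower. The 0 lower calls and the median partly follow from that limit. Slc5a10, a sodium-coupled sugar transporter (chromosome 11, 61672781 to 61720826), stood at 78.5 CPM in high-insulin cells, where 178 of 467 held it, and at 3 UMIs in 2 control cells, a log2 ratio of 5.4 (4.26 to 8.10). Serpina7, a thyroxine-binding globulin, stood at 54.9 and 3.72 CPM, and the hormone gastrin, Gast, at 42.3 and 5.12 CPM. Aldh1a3, a retinaldehyde dehydrogenase used as a marker of failing beta cells, reached only 10.3 and 4.65 CPM. All 78 Cck UMIs of high-insulin cells came from 5 cells, so that gene describes those cells.

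Progenitor genes were mixed. Of 13 measured endocrine progenitor genes 4 were higher and 2 lower (median log2 ratio 0.09), beside 8.81% and 6.81% of all genes. Without scaling 8 were higher and 0 lower, and with totals lacking hormone genes 2 were higher and 3 lower. Sox4, which acts beside Neurog3, stood at 276 CPM in high-insulin and 80.9 CPM in control cells, and Cdkn1a, the cell cycle inhibitor p21, at 147 and 38.1 CPM. Fev, of late endocrine progenitors, stood at 103 and 47.5 CPM. Neurog3 itself, which starts endocrine commitment, was lower at 4.07 and 13.5 CPM. Among 15 measured progenitor and duct genes 6 were higher and 2 lower, but 2 and 4 in male cells (median log2 ratio -0.12), 2 and 3 at 20% to under 60% insulin, and 3 and 3 with totals lacking hormone genes. The higher ones were led by the inhibitor Id3 (59.8 and 8.37 CPM) and by Dcdc2a (169 and 45.6 CPM). The 2 lower ones were Spp1, of which 5 cells held 94.4% of the control UMIs, and Krt19, found in 20 control cells. The neuropeptide Cartpt stood at 223 and 19.5 CPM (log2 ratio 3.48, interval 3.07 to 3.99).

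Protein folding genes did not move as a group. Of 21 measured genes of folding and the unfolded protein response, 1 was higher and 1 lower (median log2 ratio -0.24), beside 8.81% and 6.81% of all genes. None of 13 translocation genes was called. Without scaling 5 and 6 genes of these lists were higher and 0 lower. Hspa5, the main ER chaperone, stood at 1404 CPM in high-insulin and 1210 CPM in control cells. Over all cells Herpud1, of ER-associated degradation, was higher at 393 and 123 CPM, and Sdf2l1, an ER chaperone cofactor, lower at 74.6 and 262 CPM. In male cells 0 genes of the folding list, Herpud1 included, were called higher and 1 lower, and in female cells 1 and 4.

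Genes that answer to glucose, oxygen and redox state included 5 higher and 0 lower of 16 measured, with a median log2 ratio of -0.12. For all lists here the background is 8.81% higher and 6.81% lower of all genes. Without scaling 6 of the 16 were higher and 0 lower. Txnip, the thioredoxin-interacting protein induced by glucose, stood at 1235 and 349 CPM, and its relative Arrdc4 at 402 and 16.7 CPM (log2 ratio 4.54, interval 4.11 to 5.10). The mitophagy receptor Bnip3 stood at 182 and 37.2 CPM. Of 21 glycolysis and citrate cycle genes 3 were higher, led by Gpi1 (log2 ratio 1.69), and 2 lower, Pcx (4.34 and 29.3 CPM) and Gpd2 (28.6 and 69.3 CPM), which feed anaplerosis and the glycerol phosphate shuttle. Without scaling 13 of the 21 genes were higher and 1 lower, beside 5288 and 131 of 9877 genes measured on that scale. The list's median log2 ratio was then 1.10 in place of 0.11. None of 17 nuclear respiratory chain genes was called, and their median log2 ratio was 0.06, though 9 were higher without scaling. Of 8 measured mitochondrially encoded genes 3 were higher, such as mt-Co1 at 734 and 326 CPM. Only 1 was higher with totals lacking hormone genes, and all 8 were without scaling. The mitochondrial shares given above count insulin in their totals, so they cannot be set beside these scaled values. The class I antigen H2-D1, which has close copies, stood at 949 and 345 CPM.

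**Figure D3:**
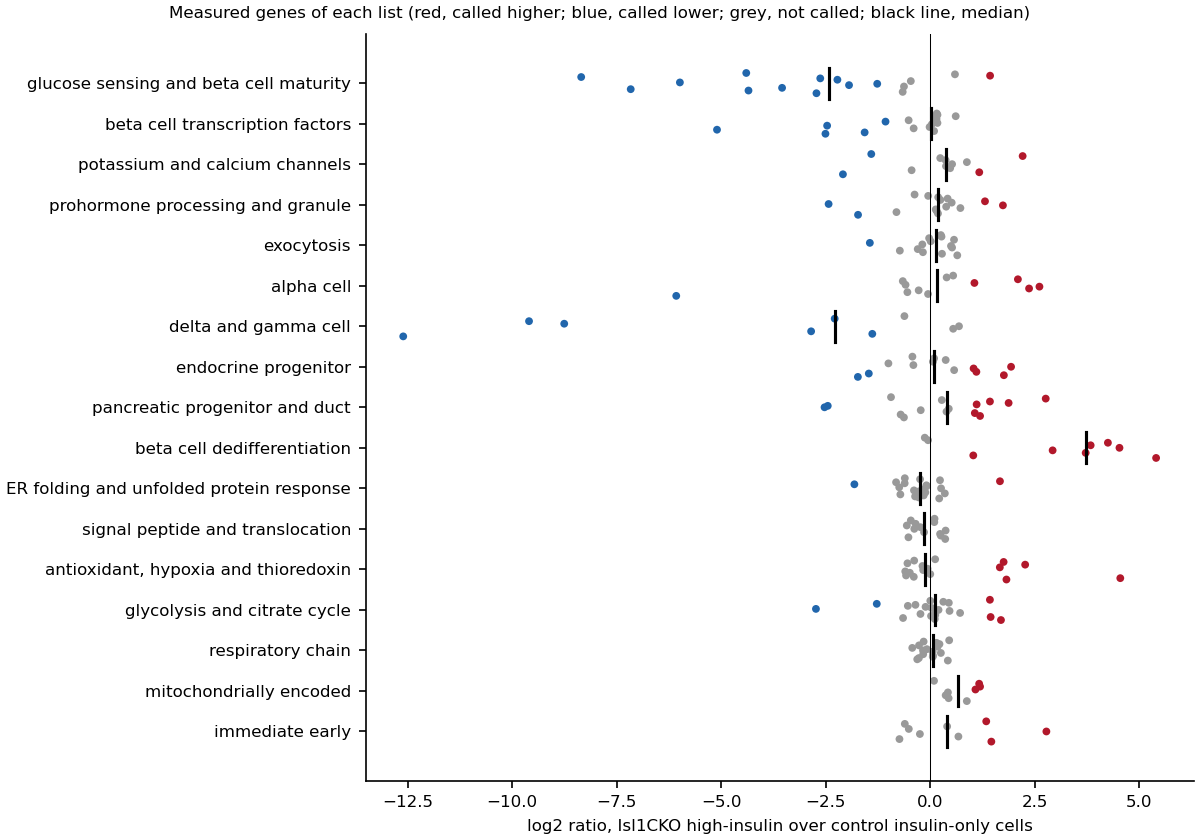
Log2 ratios of high-insulin over control insulin-only cells for the measured genes of 17 lists, with red for genes called higher, blue for lower, grey for neither and a black line at the list's median (genes with 0 UMIs in 1 group are drawn at the value with 1 added to each sum). Glucose sensing genes lie mostly to the left (median -2.43), dedifferentiation genes to the right (median 3.72), and the lists for exocytosis, translocation and the respiratory chain stay around 0 on this scale, which unscaled CPM would move to the right by 0.995. Genes under 5 CPM in 1 group could be called only toward the other group.

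By size of the ratio alone, the highest genes (those reaching 20 CPM and 20 UMIs in either group) included Cidea, a lipid droplet protein, at 155 CPM in 331 of 467 high-insulin cells against 4 UMIs in control, a log2 ratio of 6.06 (5.02 to 8.25). Cidea was as widespread in Isl1CKO cells with insulin under 1%, of which 70.7% held it. Fbp2, a gluconeogenic enzyme, followed at 56.4 CPM and 3 control UMIs, a log2 ratio of 4.93 (3.78 to 7.62). Pnoc, a neuropeptide precursor, had a log2 ratio of 4.85 (3.70 to 7.54). Further genes were Ptger3, a prostaglandin receptor (139 and 5.12 CPM), the imprinted gene Dlk1 (174 and 9.30 CPM) and Sorcs2, a sortilin-family receptor (89.5 and 4.65 CPM). Zg16, Try5 and Sycn, also on that list, are acinar genes. All 14 measured acinar genes were called higher, beside 8.81% of all genes, but 3 high-insulin cells held 81.3% of the acinar UMIs. Between the sexes of the high-insulin cells, all 14 measured were lower in male cells (median log2 ratio -3.57), beside 6.19% of all genes. The acinar share per cell had a median of 0.00732% and a maximum of 27.3%, and the free RNA held 0.962% in Isl1CKO and 0.0408% in control. Its part in the acinar values was not tested.

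The lowest genes besides hormones, Ucn3 and Cox6a2 were Dapl1 (0 UMIs, at least 179.5-fold lower than 73.0 CPM in 39 control cells) and Arg1, an arginase, with 2 UMIs against 36.3 CPM (log2 ratio -6.50, -10.13 to -5.16). Sparc, Npy, Pbk and Ube2c completed the list, and their control UMIs came from only 4, 6, 7 and 8 cells. Of endothelial and stromal markers, 9 of 13 had 0 UMIs in high-insulin cells, including Sparc and Col1a1, and of 10 macrophage markers 4 were at 0, including Ptprc. UMIs were found for 4 and 6 of these markers in high-insulin cells, and for 10 and 2 in control insulin-only cells. Their summed shares were 0.000190% and 0.0147% of UMIs, against 0.00485% and 0.00551% in control insulin-only cells.

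Within the Isl1CKO library, 10138 genes were measured against the cells with insulin under 1%, with 276 (2.72%) called higher and 263 (2.59%) lower, 5.32% in all. Higher genes were 51.2% of these calls, 25% with unscaled CPM and 60.6% with totals lacking hormone genes. Insulin aside, the highest ratios belonged to Msln, mesothelin, at 55.6 and 0.808 CPM (log2 ratio 6.09, 5.72 to 6.51), G6pc2 at 24.0 and 0.518 CPM (5.51, 5.04 to 6.06), Aqp4, a water channel, at 25.6 and 0.757 CPM, and Abcc8 at 59.8 and 2.45 CPM (4.61, 4.36 to 4.86). Slc5a10 (78.5 and 3.84 CPM), Slc2a2 (98.6 and 6.35 CPM) and the transcriptional cofactor Lmo1 (41.4 and 2.40 CPM) were higher too. So the same gene could be low against control and high against neighbouring Isl1CKO cells, as Slc2a2, G6pc2, Abcc8 and Pcsk1 (113 and 13.0 CPM) were over all cells. For Abcc8 this did not hold in female cells, where the log2 ratio was 0.89 against 4.43 in male cells, and for G6pc2 the ratios were 1.92 (2 UMIs in female high-insulin cells) and 5.21. Of 12 measured glucose sensing genes 7 were higher and 0 lower (median log2 ratio 1.64), beside an all-gene median of -0.02. G6pc2, under 5 CPM in the cells with insulin under 1%, was measured only through the high-insulin cells and could not have been called lower.

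The transcription factors separated again. Pdx1 stood at 58.7 against 20.4 CPM and was called higher, while Nkx6-1 stood at 128 and 115 CPM (log2 ratio 0.16, interval 0.06 to 0.26). Mlxipl, the carbohydrate response factor ChREBP, stood at 93.2 and 22.0 CPM. Isl1CKO cells with 1% to under 5% insulin were intermediate for Pdx1 (40.6 CPM), Slc2a2 (54.4 CPM), Abcc8 (9.76 CPM) and Slc5a10 (34.0 CPM), and level with the high-insulin cells for Nkx6-1 (129 CPM).

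Against Isl1CKO cells with insulin under 1%, 5 of 12 measured genes of the alpha cell list were lower and 0 higher (median log2 ratio -0.78), beside 2.59% and 2.72% of all genes. That group is mixed: 143 of its cells drew 0.5% or more of their UMIs from acinar markers. The part of this mix in the values was not tested. Irx1 stood at 5.70 and 83.9 CPM, Irx2 at 7.19 and 84.4 CPM, and the amino acid transporter Slc38a5 at 28.9 and 593 CPM. Immediate early genes were lower in 8 of 11 cases (2.59% of all genes were) and higher in none, around a median log2 ratio of -1.59. In male cells 3 were lower (median -0.59) and in female cells 8 (median -2.02), and male cells were 37.9% of high-insulin and 22.6% of low-insulin cells of known sex. Egr1 was an example at 79.6 and 232 CPM, although against control insulin-only cells it was higher (11.2 CPM there). Ghrelin, Ghrl, stood at 1.76 and 116 CPM, and the gut hormone Gip at 0 UMIs against 24.7 CPM. Both rested on few of the low-insulin cells, of which 5 held 87.8% of Ghrl and 99.0% of Gip UMIs.

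Within the high-insulin cells, several genes differed with the insulin share itself. In the 176 cells with 5% to under 10% insulin, the 146 with 10% to under 20%, the 121 with 20% to under 40% and the 24 with more, Slc2a2 stood at 55.0, 99.7, 126 and 218 CPM. Over the same steps G6pc2 stood at 6.91, 14.8, 35.9 and 115 CPM, and Slc5a10 at 36.6, 72.8, 120 and 167 CPM. Abcc8 stood at 33.2, 26.1, 103 and 186 CPM. Chgb took the opposite order, at 20552, 18082, 15420 and 9951 CPM. In the highest step Ucn3 reached 12.6 CPM, against 240 CPM in control cells at 40% or more. The share of male cells among those of known sex went from 22.7% through 38.1% and 53.1% to 83.3% over these steps, and its part in the gradient was not tested. Control insulin-only cells in the 3 lower steps numbered 9, 13 and 25. The small steps, the 24 Isl1CKO cells included, limit what the order shows.

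**Figure D4:**
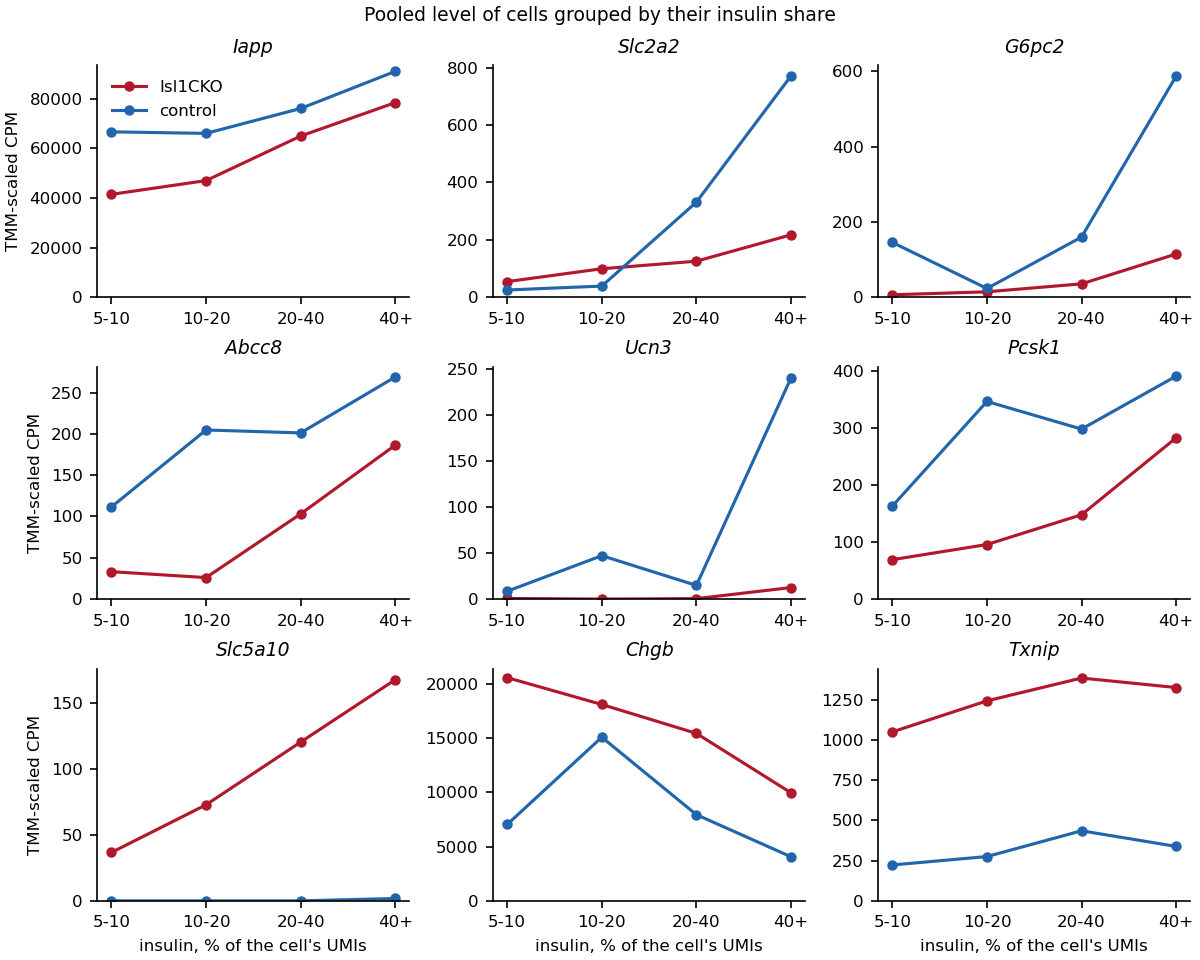
Pooled TMM-scaled CPM of 9 genes in high-insulin Isl1CKO cells (red) and control insulin-only cells (blue), grouped by the insulin share of a cell's UMIs; the steps hold 176, 146, 121 and 24 Isl1CKO cells and 9, 13, 25 and 158 control cells. Slc2a2, G6pc2 and Slc5a10 are higher in Isl1CKO cells with more insulin, Chgb is lower, and Txnip lies between 1051 and 1386 CPM in all 4 red points.

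At 20% to under 60% insulin in both groups, 51 of the 59 genes followed through the alternatives that were called against control remained called the same way. Among these, Pdx1 had a log2 ratio of -2.07, Slc2a2 of -1.73, G6pc2 of -2.38, Ucn3 of -5.91, Slc5a10 of 5.77 and Chgb of 1.20. Abcc8, still called, had a log2 ratio of -1.06 there, and Pcsk1 of -0.99 and Slc30a8 of -0.74, neither of which was called. Of the 14 acinar genes, 2 were higher and 2 lower there, beside 605 higher and 512 lower among all genes in that setting.

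Male and female high-insulin cells differed in number and in level. High-insulin cells were 8.76% (7.46 to 10.2) of male and 4.5% (3.96 to 5.09) of female Isl1CKO cells, and their median insulin shares were 17.8% and 10.4%. Control lay the same way, with 6.16% (5.07 to 7.39) of male and 2.77% (1.84 to 4.01) of female cells and median shares of 62.8% and 49.8%. Between the sexes, 10101 genes were measured, with 792 (7.84%) higher and 625 (6.19%) lower in male high-insulin cells, against 156 (1.51%) and 254 (2.46%) of 10329 in control insulin-only cells, or 14% and 3.97% in both directions. Control had 27 female cells, which limits its comparison. Sex and animal cannot be told apart, since the labels give no animal per cell.

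Several beta cell function genes were higher in male high-insulin cells: of 12 measured glucose sensing genes 5 were higher and 1 lower in male than in female cells, against the background of 7.84% and 6.19% (median log2 ratio 0.61). In control insulin-only cells 5 of 16 were higher and 0 lower in male cells, against 1.51% and 2.46% of all genes (median log2 ratio 0.61). The lists hold different measured genes, and the difference between the genotypes was not tested. Slc2a2 stood at 178 CPM in male and 11.8 CPM in female high-insulin cells, against 675 and 350 CPM in male and female control insulin-only cells. G6pc2 stood at 50.8 and 0.547 CPM, with 2 UMIs in 242 female cells, against 534 and 200 CPM in control. Abcc8 stood at 123 and 1.92 CPM, against 252 and 241 CPM in male and female control cells. It was found in 61 of 148 male cells (41.2%) and 4 of 242 female cells (1.65%), or 27.4% and 0.661% at 3000 non-insulin UMIs per cell. The male over female log2 ratio of Abcc8 was 5.82 in high-insulin and 0.05 in control insulin-only cells, and the difference between these was not tested. Pcsk1 stood at 189 and 52.0 CPM, and Mlxipl at 149 and 43.2 CPM. Genes scarce in control were higher in male cells too: Slc5a10 stood at 142 and 22.2 CPM, and Gast at 87.1 and 4.65 CPM (1.62 and 14.7 CPM in control).

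Female high-insulin cells were higher in another set. Sox4 stood at 415 CPM in female and 121 CPM in male high-insulin cells, and at 64.6 and 79.3 CPM in female and male control cells. Arrdc4 stood at 606 and 161 CPM, and female control cells had 0 UMIs of it, so that it was at least 72.7-fold higher in female high-insulin cells. Bnip3 (270 and 56.0 CPM), Herpud1 (574 and 146 CPM), Egr1 (122 and 15.3 CPM) and Dlk1 (302 and 21.7 CPM) lay the same way. The tdTomato reporter stood at 5175 CPM in female and 1766 CPM in male high-insulin cells, and at 1172 and 1396 CPM in control. Not called between the sexes of the high-insulin cells were Chgb (18394 and 17812 CPM) and Msln (59.1 and 48.6 CPM).

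**Figure D5:**
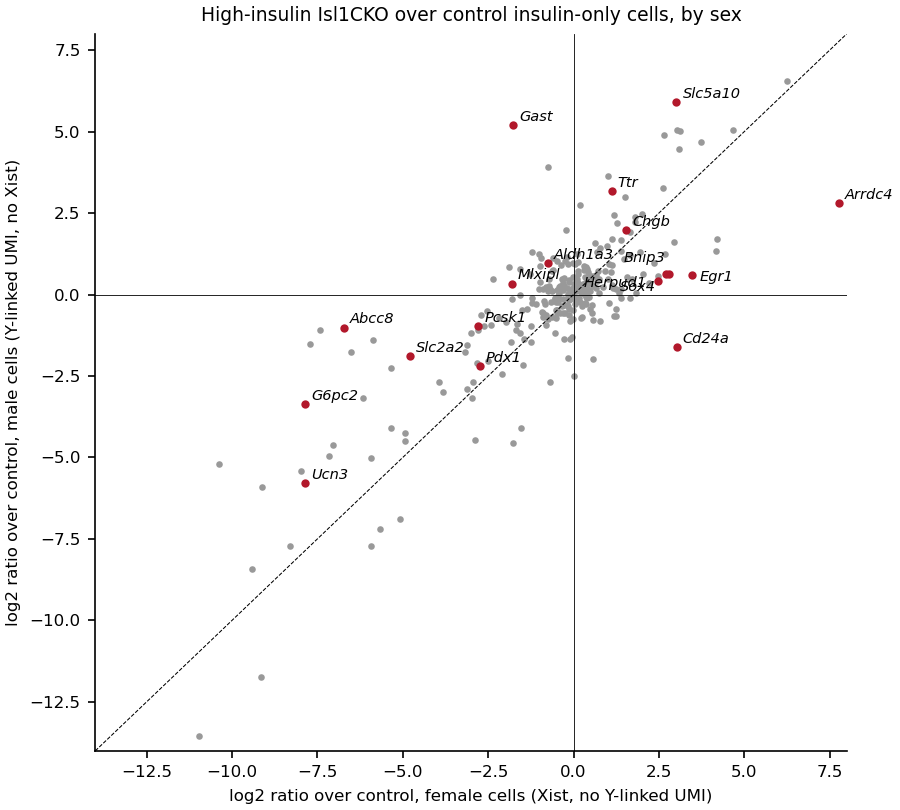
Log2 ratio of high-insulin over control insulin-only cells in female cells (horizontal) and male cells (vertical) for the measured list and top genes other than sex-linked and acinar ones, scaled within each sex; the dashed line marks equal ratios, and genes with 0 UMIs in 1 group (such as Slc5a10 and Arrdc4 in female control cells) are drawn with 1 added to each sum. Abcc8, G6pc2 and Slc2a2 lie left of the line, Arrdc4, Egr1 and Cd24a right of it, and Pdx1 and Chgb near it.

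Within the male cells, detection of some of these genes in the same cell was counted. Of the 61 male cells with an Abcc8 UMI, 50 also held Slc2a2 (82.0%), and 71 of the 87 without one did (81.6%). G6pc2 was found in 27 of the 61 (44.3%, 31.5 to 57.6) and in 20 of the 87 (22.99%), at median depths of 13608 and 13516 non-insulin UMIs. Slc5a10 and Slc2a2 overlapped as well: 86 of 97 male cells with Slc5a10 held Slc2a2 (88.7%), as did 35 of the 51 without it (68.6%), at 14102 and 12407 UMIs. These are counts of cells with a UMI and miss cells whose transcripts were not captured. For reference, Slc2a2 was found in 4.11%, Abcc8 in 1.48% and Slc5a10 in 1.99% of Isl1CKO cells with insulin under 1%, at a median of 7707.5 non-insulin UMIs.

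Over the 5 groups of cells (control insulin-only, control under 1%, and Isl1CKO at 5% or more, 1% to under 5% and under 1%), the genes whose log2 level ran most like that of insulin were Vapb (Pearson r 0.992), Tor1b (0.991), Psmc3 (0.991), Msln (0.991), Enho (0.987) and Uqcrq (0.986), among 2519 genes at 50 CPM or more in high-insulin cells. The r is a description over 5 points that share libraries and were themselves cut by insulin share, so it is no test of a link to insulin. Vapb, Tor1b and Psmc3 vary little: Vapb stood between 97.7 and 154 CPM in all 5 groups. Msln, by contrast, stood at 55.6 CPM in high-insulin and 142 CPM in control insulin-only cells and at no more than 0.808 CPM where insulin was under 1%.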

How the data were processed

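Single-cell RNA was measured in 1 control and 1 Isl1CKO library. The deposited matrices hold whole-number UMI counts per gene and barcode, unfiltered, and the submitters' processing notes list GRCm38.p6, Seurat 4.3.0.1, STAR 2.7.3a and STARsolo; the role of each, and how reads shared by near-identical genes were counted, are not given in the sources used here. Members and gene lists were chosen with earlier results of these data known.

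Cells were filtered as stated in the report. Summed UMIs were scaled with TMM factors (edgeR 4.0.16, R 4.3.3; reference the high-insulin sum), and the log2 ratio used 1 added to each sum. Ratios have exact conditional Poisson intervals, CPM exact Poisson and shares Clopper-Pearson intervals, which cover counting error only. The comparison code was tested on simulated data. Shares at 3000 non-insulin UMIs per cell are expected values after thinning; 15 of 467 high-insulin and 15 of 205 control insulin-only cells were too shallow for it. Doublets were kept. Scrublet (scanpy 1.11.5) called 0 Isl1CKO cells at its own threshold, so as an alternative the control threshold of 0.185 was used in both libraries; it marked 22 high-insulin and 6 control insulin-only cells.

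The named genes are those of 28 lists, the 12 highest and 12 lowest ratios against control and the 8 and 8 within Isl1CKO (at least 20 CPM and 20 UMIs in 1 group, same direction under each scaling and without doublets), and the 6 most like insulin. Alternatives were unscaled CPM, totals without hormone genes, DESeq2 1.42.0 size factors, other filters, limits and added counts, equal weight per cell, each sex, and, chosen after seeing the data, cells with other-type markers or shared barcodes left out and 20% to under 60% insulin in both groups. 1 listed symbol, Ero1b, is not among the gene names used here. A few list genes count in the list totals but are not reported here by name.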

Additional observations from a re-analysis of the deposited data

Results flagged for a closer look

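Cd24a, a surface glycoprotein of pancreatic progenitors, was lower in male and higher in female high-insulin cells than in control insulin-only cells of the same sex. The log2 ratio was -1.61 in male cells (29 against 42 UMIs) and 3.02 in female cells (410 against 4 UMIs, the latter in 27 control cells). It was chosen for mention because the sexes moved in opposite directions past 2-fold, as did 15 of all genes, against 245 genes higher in both sexes and 220 lower in both. The difference between the sexes was not tested, and sex and animal cannot be told apart.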

How the results depend on the processing

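No paired analysis was possible because each genotype has 1 library and no test was made. A limit of 10% insulin left 291 high-insulin cells; the other settings gave 445 to 625. Against control insulin-only cells, unscaled CPM gave 5288 higher and 131 lower genes, totals without hormone genes 1129 lower, a 20 CPM minimum 436 higher and 311 lower, and 20% to under 60% insulin in both groups, chosen after seeing the data, 605 higher. Within Isl1CKO, unscaled CPM gave 173 higher and 519 lower, no filter 659 and 749, and a 20 CPM minimum 140 and 102. The remaining counts stayed within 1.5 times. Of 1550 gene values under alternatives, 1177 stayed inside the interval given for that gene and 5 reversed: Gast (-1.76) and Aldh1a3 (-0.76) in female and Cd24a (-1.61) in male cells against control, and Gip (0.87) in male and Cd74 (0.34) in female cells within Isl1CKO. The cause was not tested. Depth limits genes with few UMIs, most of all in the 27 female control cells, and no value has a replicate check.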
